A study of Mus musculus with 9 samples.

Results

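The 31 genes described here mark the blood vessels of the brain: 20 are characteristic of endothelial cells, and 11, from Acta2 to Mylk, of the mural cells (pericytes and smooth muscle) that wrap them. They were chosen by name, as a list of known vascular markers, from the 35125 gene rows of the table, and each of the 31 names matched 1 row. Their expression was measured as FPKM, fragment numbers scaled by transcript length and library size, in tissue of the medial prefrontal cortex (mPFC) of mice. There were 3 libraries of unstressed controls, 3 of a chronic unpredictable stress model (CUS) and 3 of a running model, whose label lists exercise. The series text describes running as an intervention in stressed mice, whereas the running group's own labels name no stress. All 9 labels carry a period of 4 weeks and a week 8, without saying to what each refers. No source used here gives strain, sex or age. Replicates were numbered by order of listing and pair no libraries. No label says whether the libraries came from different animals or pools, so p-values reflect only variation among libraries, part of which may be technical.

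Endothelial cells line every vessel, and in the brain they are sealed by tight junctions and carry dense sets of transporters and efflux pumps, which together form the blood-brain barrier. Pericytes sit on the capillary wall and are held there by PDGF receptor signalling, while arterial smooth muscle carries a contractile apparatus of actin, myosin light chains and their kinase. In cortex these cells are a small minority beside neurons and glia, so their transcripts in bulk RNA are mostly of low to moderate abundance. In bulk tissue, fewer cells of a type and less RNA per cell cannot be told apart.

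All 31 genes passed the filter of at least 0.5 FPKM in at least 3 libraries, as did 14013 genes in all. FPKM summed to between 370441 and 423257 per library, with the highest sum in CUS replicate 3, and the other 8 libraries reached at most 393663. That library also had the lowest median correlation with the others across genes, and list medians and several gene differences are given with and without it. The tissue label was checked on 14 genes of cortical neurons, all of them kept, and the excitatory marker Slc17a7 lay between 695.72 and 767.95 FPKM. These genes mark cortical neurons in general, so they cannot tell the mPFC from other cortex. No endothelial or mural gene was at 0 in any library.

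Per length, the 31 genes spanned a wide range of levels. Ly6c1, a surface protein anchored by a lipid, was highest at a mean of 51.9 FPKM over the 9 libraries (45.46 to 64.72), and its lowest library lay above every library of every other member. Vtn, the secreted adhesive protein vitronectin that pericytes make in brain, followed at 31.1 FPKM (24.90 to 38.79). Next came Ly6a, Itm2a, the pericyte regulator of G protein signalling Rgs5, Egfl7 and the tight junction protein Cldn5, with means of 23.9, 22.7, 20.4, 19.6 and 17.6 FPKM. Their ranges overlapped from each to the next, so the order among these 5 is not separated by the spread between libraries. The lowest members were Anpep, Abcc9 and Kcnj8, with means of 1.77, 1.46 and 1.22 FPKM. Apart from Ly6c1, each member overlapped the next one down the order. Ly6c1 and Ly6a belong to a family of closely related genes on chromosome 15, and Acta2 has near-identical actin relatives. No source used here says how reads were divided among such copies, so their levels are uncertain. Tagln had the widest spread over the 9 libraries, with a highest value 4.17 times its lowest, followed by Vwf at 3.07 and Acta2 at 3.06 times. Ly6a, Egfl7 and Mylk had the narrowest, at 1.36 times each.

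RefSeq promoter windows on GRCm38.p6 were matched for 19 of the 31 genes. The 4 stretches printed here belong to Egfl7 and Itm2a, whose groups did not overlap in both comparisons of the running group, to Myl9, the mural gene with the smallest p there, and to the endothelial receptor Tie1 for comparison. Each is the 250 bases upstream of an annotated start, 5′ to 3′ on the gene's strand; Myl9 is shown for the first 194, up to the gene's first annotated base. Capitals mark CAGGAA or its reverse complement TTCCTG, the letters around the core that ETS factors bind, in the first 3, and the CArG box, the element bound by serum response factor, in Myl9.
Egfl7, chr2:26580833-26581082, plus strand: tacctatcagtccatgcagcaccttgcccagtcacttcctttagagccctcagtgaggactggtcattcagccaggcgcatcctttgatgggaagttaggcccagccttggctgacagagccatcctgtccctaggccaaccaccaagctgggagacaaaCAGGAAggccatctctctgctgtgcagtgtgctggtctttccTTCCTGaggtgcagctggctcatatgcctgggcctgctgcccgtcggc
Itm2a, chrX:107403361-107403610, minus strand: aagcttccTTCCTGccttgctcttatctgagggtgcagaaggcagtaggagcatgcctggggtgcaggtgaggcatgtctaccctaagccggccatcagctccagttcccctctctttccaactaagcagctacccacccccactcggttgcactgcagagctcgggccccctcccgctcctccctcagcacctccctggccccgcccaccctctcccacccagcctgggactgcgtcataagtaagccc
Tie1, chr4:118489850-118490099, minus strand: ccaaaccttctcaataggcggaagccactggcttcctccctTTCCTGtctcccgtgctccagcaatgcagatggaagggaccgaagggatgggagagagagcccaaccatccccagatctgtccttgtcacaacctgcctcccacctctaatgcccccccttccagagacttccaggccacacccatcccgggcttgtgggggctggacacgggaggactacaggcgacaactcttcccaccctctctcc
Myl9, chr2:156775214-156775407, plus strand: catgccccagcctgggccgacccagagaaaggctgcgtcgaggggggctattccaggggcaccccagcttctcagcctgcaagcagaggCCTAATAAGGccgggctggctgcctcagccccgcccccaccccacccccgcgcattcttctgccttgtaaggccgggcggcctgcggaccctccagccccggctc
The first bases of the capitals lie 90 and 48 bases upstream of the start in Egfl7, 242 in Itm2a, 209 in Tie1 and 161 in Myl9. CAGGAA on either strand was in a window of 6 of the 11 matched endothelial genes (Egfl7, Emcn, Itm2a, Pglyrp1, Tek and Tie1) and of 2 of the 8 matched mural genes (Abcc9 and Rgs5). It was in 25.7% of all 32851 windows of that length. The CArG box was in the window of Myl9 alone among the 19 matched genes, and in 1.47% of all windows. TATAAA and GGGCGG were also searched and are not marked in capitals. TATAAA was in a window of 1 of the 11 endothelial and 1 of the 8 mural genes, and in 12.4% of all windows. GGGCGG was in a window of 4 of the 11 and 3 of the 8, and in 32.7% of all windows, so both lay near the share of all windows. Each motif was searched separately and the matches shown do not overlap. Each match describes these letters in this window and says nothing of binding. Egfl7 has 3 windows and Ly6c1 has 2, so a gene with several windows had more chances of a match.

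In CUS against control, most vascular genes had lower mean log2 values in the CUS libraries, and the smallest p values were those of the endothelial genes Ptprb, Pecam1 and Pglyrp1 and the mural gene Abcc9. Of the 20 endothelial genes, 13 were below 0 on the log2(FPKM + 0.5) scale, with a median difference of -0.15, and of the 11 mural genes 10 were below 0, with a median of -0.15. Over all 14013 genes the median was 0.02 and 44.1% were below 0. By limma 0 of the 31 genes were called at an adjusted p under 0.05, where 0.00714% of all genes were called. At an unadjusted p under 0.05 there were 3 lower endothelial genes and 1 lower mural gene, with 0 higher, against a background of 5.79% lower and 8.90% higher. Those 4 became 2 without control replicate 1, control replicate 3 or CUS replicate 3, and 6 with TPM. Without overlap between groups there were 6 lower members and 1 higher one, where the background was 7.60% lower and 12.1% higher.

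Pecam1 (chromosome 11, 106654213 to 106715281), the adhesion molecule at the contacts between endothelial cells, had 7.26, 6.95 and 6.81 FPKM in the controls, 5.96, 5.44 and 3.86 in CUS, and 4.13, 5.79 and 4.43 in running. Every library of both other groups was below every control, so it is among the clearest separations in the list. CUS averaged 5.09 ± 1.09 FPKM against a control mean of 7.01 ± 0.230 (SD, n = 3 each), or -0.45 on the log2 scale (SE 0.148, limma adjusted p = 0.267). Ptprb (chromosome 10, 116275502 to 116389538), a receptor phosphatase that restrains the angiopoietin receptor, had 4.01, 4.02 and 3.80 FPKM in the controls, 3.14, 2.96 and 2.01 in CUS, and 2.65, 3.72 and 2.71 in running. It separated the controls in the same way, and was -0.49 on the log2 scale between CUS and controls (SE 0.151, limma adjusted p = 0.260). Esam, another adhesion molecule of endothelial junctions, had 6.98, 7.21 and 7.87 FPKM in the controls, 6.56, 6.09 and 5.51 in CUS, and 5.20, 7.36 and 5.13 in running. All CUS libraries were below all controls, whereas running replicate 2 lay among them. On the log2 scale its CUS values were -0.26 from controls (limma adjusted p = 0.351). Pglyrp1, a secreted protein that binds bacterial cell wall and is abundant in brain endothelium, had 16.62, 10.21 and 14.64 FPKM in the controls, 8.55, 11.30 and 7.87 in CUS, and 9.42, 13.06 and 8.42 in running. Control replicate 2 lay within the CUS range, so the groups overlapped, and the log2 difference was -0.55 (SE 0.197, limma adjusted p = 0.286). Without CUS replicate 3 the differences of CUS from controls were -0.32 for Ptprb, -0.28 for Pecam1, -0.44 for Pglyrp1 and -0.20 for Esam.

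For the other defining endothelial genes, Cldn5, Cdh5, Tek and Tie1, the CUS and control values overlapped. Cldn5, the main sealing protein of the barrier's tight junctions, had 16.93, 22.09 and 18.39 FPKM in the controls and 20.45, 21.58 and 15.65 in CUS, and the groups overlapped with a log2 difference of 0.0021. That sign turned negative under 8 of the alternatives, including rescaling to TPM, median-ratio scaling and quantile normalization, so no direction can be given. Cdh5, the endothelial cadherin of adherens junctions, had 4.23, 4.54 and 3.97 FPKM in the controls, 3.87, 3.97 and 2.63 in CUS, and 2.81, 4.92 and 3.15 in running. The lowest value was that of CUS replicate 3, and the CUS difference was -0.27 (limma adjusted p = 0.476). The angiopoietin receptor Tek had 3.19, 3.29 and 2.66 FPKM in the controls, 3.10, 2.89 and 2.07 in CUS, and 2.44, 3.30 and 2.34 in running. Its partner receptor Tie1 had 2.80, 3.11 and 3.06 FPKM in the controls, 2.82, 2.77 and 1.47 in CUS, and 2.31, 3.23 and 1.94 in running. Both receptors were lowest in CUS replicate 3 and highest in running replicate 2. Emcn, a sialomucin of capillary and venous endothelium, was the 1 member higher in every CUS library than in every control, at 4.62, 4.98 and 4.67 against 3.62, 4.31 and 4.22 FPKM (log2 difference 0.21, limma adjusted p = 0.424); it was named after its values were seen.

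Among mural genes the smallest p in CUS against control was that of Abcc9 (chromosome 6, 142587862 to 142702766), the sulfonylurea receptor subunit of a potassium channel that pericytes carry. Its FPKM values were 1.68, 1.50 and 1.55 in the controls, 1.12, 1.44 and 0.84 in CUS, and 1.29, 1.74 and 1.95 in running. The CUS libraries lay below all controls, and the running libraries spread to both sides of the controls. The log2 difference between CUS and controls was -0.36 (SE 0.154, limma adjusted p = 0.322). Kcnj8, which encodes the pore of the same channel and lies beside Abcc9 on chromosome 6, ranged from 1.03 to 1.47 FPKM over the 9 libraries and overlapped between all groups. Pdgfrb, the receptor that holds pericytes on the vessel, had 5.41, 5.73 and 5.77 FPKM in the controls, 5.46, 4.98 and 3.50 in CUS, and 4.25, 5.32 and 4.61 in running. CUS replicate 1 lay inside the control range and replicate 3 far below it (log2 difference -0.27, limma adjusted p = 0.361), and without replicate 3 the difference was -0.10. Without that library the difference of Abcc9 was -0.23. Acta2, the actin of smooth muscle, had 6.34, 4.99 and 4.35 FPKM in the controls, 4.36, 3.98 and 3.17 in CUS, and 3.12, 4.99 and 2.07 in running. Its CUS and control values met between 4.35 and 4.36 FPKM (log2 difference -0.40, SE 0.235, limma adjusted p = 0.417).

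**Figure D1:**
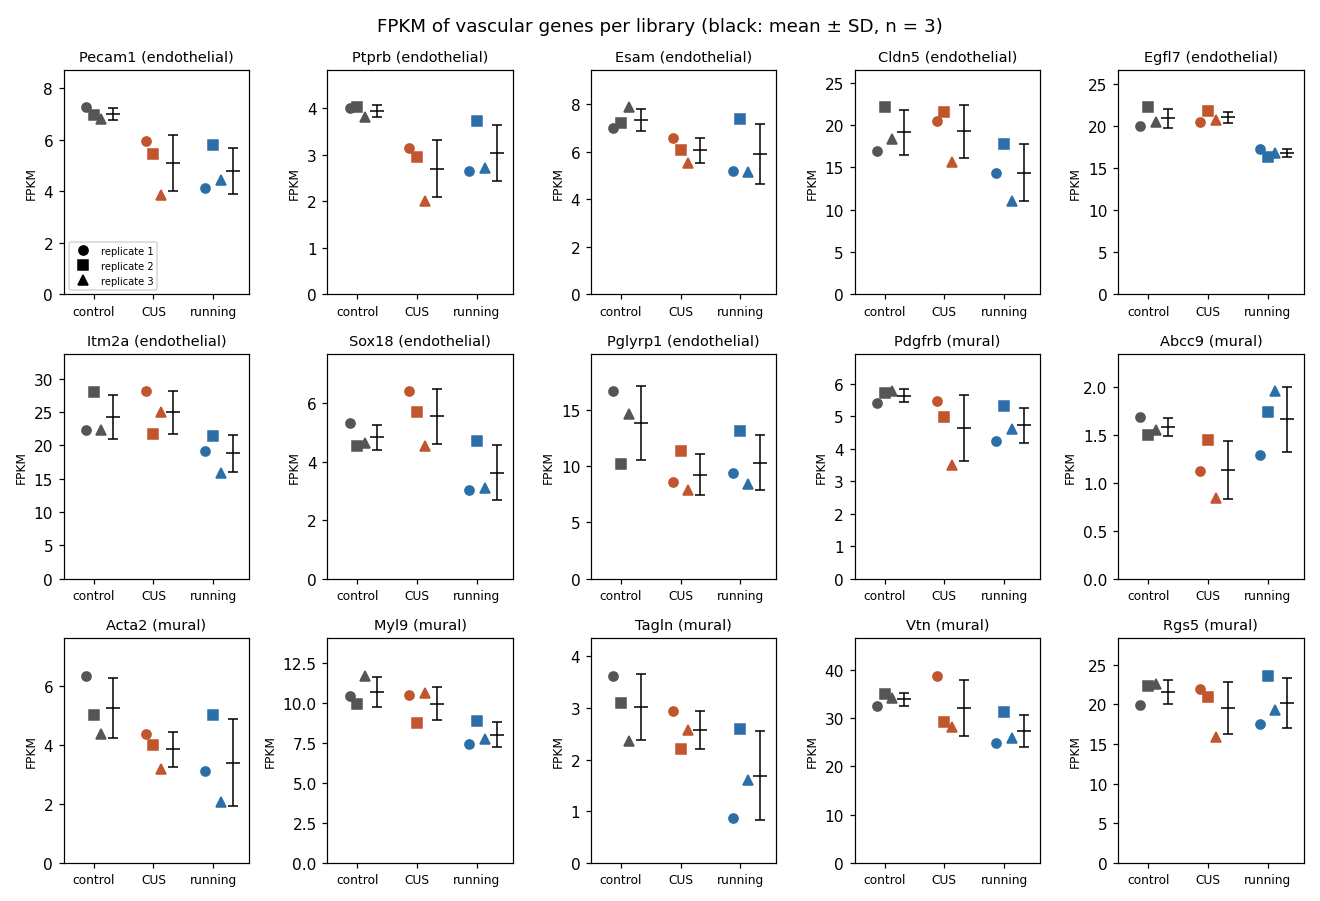
FPKM of 15 vascular genes per library (y axis, linear from 0), with 1 symbol per replicate number within a group and the mean ± SD (n = 3) in black. Pecam1 and Ptprb were lower in every CUS and running library than in every control, and Egfl7 was lower in every running library than in every other library.

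In running against CUS, the smallest p values belonged to genes with lower values in running, headed by the secreted endothelial protein Egfl7, while the medians of both groups of genes were close to 0. Of the endothelial genes 12 of 20 were below 0 with a median of -0.06, and of the mural genes 6 of 11 were below 0 with a median of -0.0093; rescaled to TPM these medians were 0.03 and 0.07, and with median-ratio scaling -0.03 and 0.02. All genes had a median of -0.03 and 57.8% below 0, so the share of members below 0 was near the background. By limma 0 members were called, where 0.00714% of all genes were. At an unadjusted p under 0.05, 6 endothelial and 2 mural genes were lower and 1 mural gene was higher, against 15.7% lower and 7.74% higher in all genes. The 8 lower members became 3 with TPM or without running replicate 3, 4 without running replicate 1, 5 without CUS replicate 1 and 2 with a trend on transcript length and base composition removed. They became 14 with the library weights described next. The groups did not overlap for 4 lower members and 0 higher ones, against a background of 15.9% and 8.99%. Without CUS replicate 2, where 1518 of the 14013 genes were called, the calls held Egfl7, Itm2a and Myl9 (limma adjusted p = 0.0307, 0.0426 and 0.0384), and without any other single library they held 0 members. Weighting each library by its fit to the model gave CUS replicate 3 a weight of 0.244 and CUS replicate 1 one of 2.61, and 2178 genes were then called, among them 8 members (Cldn5, Egfl7, Itm2a, Ly6a, Myl9, Slco1a4, Sox18 and Vtn).

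Egfl7 (chromosome 2, 26581083 to 26592682), secreted by endothelial cells and involved in the shaping of vessel tubes, had 19.99, 22.20 and 20.44 FPKM in the controls, 20.49, 21.74 and 20.72 in CUS, and 17.28, 16.31 and 16.76 in running. The 3 running libraries lay together below the other 6. Running averaged 16.8 ± 0.485 FPKM against a CUS mean of 21.0 ± 0.665 (SD, n = 3 each), or -0.31 on the log2 scale (SE 0.0594, limma adjusted p = 0.0776). Against controls, at 20.9 ± 1.17 FPKM, the difference was also -0.31 (limma adjusted p = 0.105); the 2 comparisons share the running libraries. Over all alternatives the difference from CUS lay between -0.33 and -0.20. Itm2a (chromosome X, 107397195 to 107403360), a membrane protein of brain endothelium, had 22.37, 28.05 and 22.29 FPKM in the controls, 28.11, 21.68 and 25.06 in CUS, and 19.22, 21.41 and 15.87 in running. Every running library was again below the other 6 by a narrow margin. Its log2 difference from CUS was -0.40 (SE 0.128, limma adjusted p = 0.113).

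Sox18, a transcription factor of endothelial identity, had 5.32, 4.53 and 4.65 FPKM in the controls, 6.40, 5.69 and 4.55 in CUS, and 3.04, 4.70 and 3.11 in running. Running replicates 1 and 3 were below all other libraries and replicate 2 was not (log2 difference from CUS -0.57, SE 0.156, limma adjusted p = 0.0924). Its relative Sox17 ranged from 1.58 to 2.83 FPKM and overlapped between all groups. Ly6a had 23.59, 22.68 and 27.56 FPKM in the controls, 24.90, 25.74 and 25.98 in CUS, and 21.05, 23.35 and 20.29 in running. All running libraries were below all CUS libraries, while 1 of them exceeded a control (log2 difference from CUS -0.24, limma adjusted p = 0.118). Over all alternatives the Ly6a difference from CUS lay between -0.30 and -0.019. Cldn5 had 14.36, 17.76 and 10.99 FPKM in running, against the CUS and control values given above. Running replicates 1 and 3 were the lowest of the 9 libraries, replicate 2 overlapped the others, and the log2 difference from CUS was -0.42 (SE 0.168, limma adjusted p = 0.169), or -0.25 without replicate 3.

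Myl9 (chromosome 2, 156775408 to 156781657), a regulatory light chain of smooth muscle myosin, had 10.45, 9.90 and 11.70 FPKM in the controls, 10.46, 8.74 and 10.59 in CUS, and 7.41, 8.88 and 7.76 in running. The running libraries lay below all controls, and CUS replicate 2 lay just under the highest of them. The log2 difference was -0.29 from CUS (SE 0.0970, limma adjusted p = 0.121) and -0.39 from controls (SE 0.0970, limma adjusted p = 0.182). Under the alternatives the difference from CUS lay between -0.38 and -0.11. Tagln, an actin-binding protein of contractile smooth muscle, had 3.63, 3.09 and 2.36 FPKM in the controls, 2.94, 2.2 and 2.57 in CUS, and 0.87, 2.59 and 1.60 in running. Running replicate 1 was far the lowest library and replicate 2 sat in the middle of the others (log2 difference from CUS -0.56, SE 0.248, limma adjusted p = 0.204). Abcc9 was the 1 member with a higher mean and an unadjusted p under 0.05 in this comparison, at 0.41 on the log2 scale (SE 0.154, limma adjusted p = 0.151), and its groups overlapped. Higd1b, a mitochondrial membrane protein found in pericytes, had 2.2, 2.12 and 2.07 FPKM in running against 2.83, 2.71 and 3.73 in CUS, with controls at 2.17, 2.07 and 4.17; it was named after its values were seen. The controls covered both other groups, owing to the value of control replicate 3.

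In running against control, which shares its libraries with the other 2 comparisons, nearly the whole list lay on 1 side. Each of the 20 endothelial genes had a lower mean log2 value in running, with a median of -0.23 and a range from -0.52 for Pecam1 to -0.0030 for Vwf. Of the mural genes 10 of 11 were lower, with a median of -0.24 and a range from -0.75 for Tagln to 0.05 for Abcc9. All genes had a median of -0.02 and 56.2% below 0. By limma 0 members were called, where 0.0214% of all genes were called. At an unadjusted p under 0.05, 9 endothelial and 4 mural genes were lower and 0 were higher, against a background of 6.47% lower and 5.15% higher. The 13 lower members became 5 without running replicate 1, 5 without running replicate 3, 8 without control replicate 3, 7 with TPM and 8 with the length and composition trend removed. For 9 members the running libraries lay wholly below the controls, and for 0 wholly above, where the background was 11.9% and 10.5%. With the library weights 147 genes were called, among them Egfl7, Myl9 and Pecam1 (log2 differences -0.31, -0.40 and -0.56).

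Pecam1 had the endothelial difference farthest from 0, with 4.78 ± 0.885 FPKM in running against 7.01 ± 0.230 in controls (log2 difference -0.52, SE 0.148, limma adjusted p = 0.249). Ly6c1 had 52.30, 53.01 and 64.72 FPKM in the controls, 50.24, 51.23 and 51.92 in CUS, and 45.46, 51.41 and 47.12 in running. Its 6 CUS and running libraries all lay below the lowest control, and control replicate 3 stood above the rest (log2 difference from controls -0.23, SE 0.0822, limma adjusted p = 0.319). Itm2a had a difference of -0.36 (limma adjusted p = 0.326) and Cldn5 one of -0.42 (limma adjusted p = 0.383). Vtn (chromosome 11, 78499120 to 78502325) had 32.48, 35.02 and 34.11 FPKM in the controls, 38.79, 29.27 and 28.16 in CUS, and 24.90, 31.20 and 25.87 in running. The controls lay close together and all running libraries were below them, while the CUS libraries fell on both sides (log2 difference from controls -0.31, SE 0.118, limma adjusted p = 0.348). The contractile genes Tagln and Acta2 had differences of -0.75 and -0.61 (SE 0.248 and 0.235, limma adjusted p = 0.297 and 0.356), each with running replicate 2 inside the control range. Without running replicate 1 the difference of Tagln was -0.45, and without replicate 2 it was -1.04. Rgs5, by contrast, had 19.86, 22.34 and 22.53 FPKM in the controls, 21.91, 20.90 and 15.86 in CUS, and 17.58, 23.64 and 19.33 in running. Its highest library was in the running group and its groups overlapped in every comparison. Nos3, the endothelial nitric oxide synthase, had 3.10, 3.17 and 3.07 FPKM in the controls, 2.81, 3.04 and 1.54 in CUS, and 2.70, 3.04 and 2.09 in running. All 6 CUS and running values were below the lowest control, 2 of them barely; it was named after its values were seen (log2 difference between running and controls -0.23, limma adjusted p = 0.675).

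**Figure D2:**
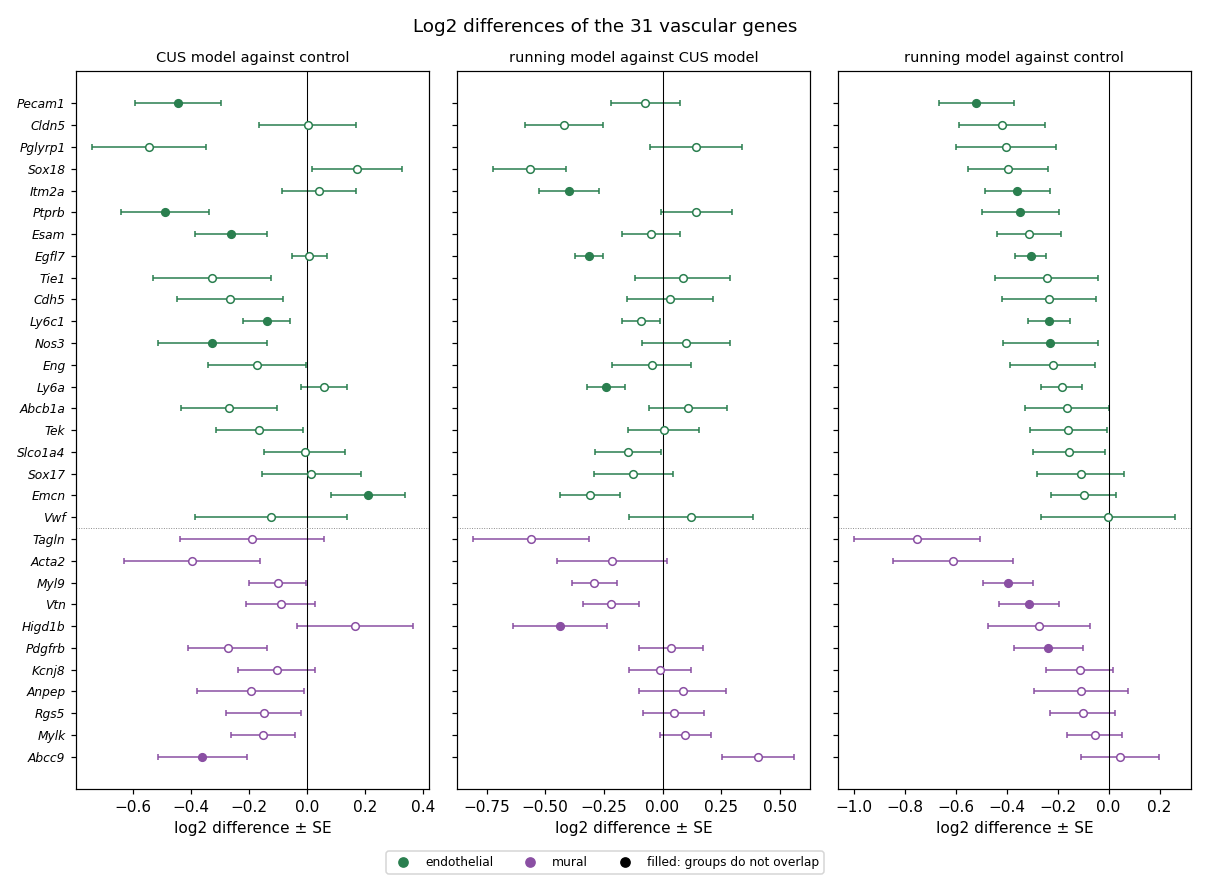
Log2 differences of FPKM + 0.5 (x axis) with their SE for the 31 genes (y axis) in the 3 comparisons, endothelial in green and mural in purple; filled symbols mark genes whose groups do not overlap. In running against control 30 of the 31 genes lie below 0, and in running against CUS 18 do.

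The remaining endothelial genes are the transporters and surface proteins Slco1a4, Abcb1a, Eng and Vwf. Slco1a4, an organic anion transporter of the barrier, ranged from 9.84 to 15.16 FPKM with group means of 12.4, 12.4 and 11.1 in control, CUS and running. Abcb1a, the drug efflux pump P-glycoprotein, ranged from 4.37 to 7.88 FPKM, lowest in CUS replicate 3 and highest in running replicate 2. Eng, a co-receptor for TGF-beta family ligands, ranged from 5.89 to 10.12 FPKM and was likewise lowest in CUS replicate 3. Vwf, the clotting factor carrier of endothelial storage granules, had 2.14, 2.02 and 1.01 FPKM in CUS and 1.51, 3.10 and 1.29 in running, so that both groups spanned the control values of 1.73, 2.03 and 1.81. In none of the 3 comparisons did the groups of these 4 genes separate. The same held for the mural genes Anpep, an aminopeptidase (1.26 to 2.36 FPKM), and Mylk, the kinase of the myosin light chain (2.54 to 3.45 FPKM).

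The spread within the CUS and running groups followed single libraries. A list score per library, the mean over genes of the log2 value minus that gene's mean over the 9 libraries, was 0.11, 0.15 and 0.14 for the endothelial genes in the controls, 0.14, 0.08 and -0.26 in CUS, and -0.22, 0.16 and -0.29 in running. For the mural genes it was 0.16, 0.12 and 0.15 in the controls, 0.10, -0.06 and -0.11 in CUS, and -0.28, 0.08 and -0.16 in running. The 3 controls thus lay close together, CUS replicate 3 stood below the other CUS libraries, and running replicate 2 stood above the other running libraries, at the control level for the endothelial genes and below all 3 controls for the mural genes. CUS replicate 3 had the lowest value of the 9 libraries for 13 of the 31 genes, running replicate 3 for 7 and running replicate 1 for 6, and neither CUS replicate 3 nor running replicate 1 had the highest value for any. By group mean, controls were highest for 20 of the 31 genes and lowest for 0, while over all genes controls were highest for 27.7% and lowest for 28.0%.

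The medians moved with these libraries. Without CUS replicate 3 the endothelial median in CUS against control was -0.00023, with 10 of 20 genes below 0, and the mural median was -0.15, with 10 of 11 below 0. In running against CUS the same omission gave medians of -0.20 and -0.13, with 19 of 20 and 8 of 11 below 0. Without running replicate 2 the medians of running against CUS were -0.20 and -0.07, and those of running against control were -0.34 and -0.27. Without running replicate 1 or 3, in turn, the endothelial median of running against control was -0.20 or -0.16. The direction of running against control thus held without any single library, with endothelial medians from -0.34 to -0.16 and mural medians from -0.27 to -0.17, while the endothelial median of CUS against control rested on CUS replicate 3.

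**Figure D3:**
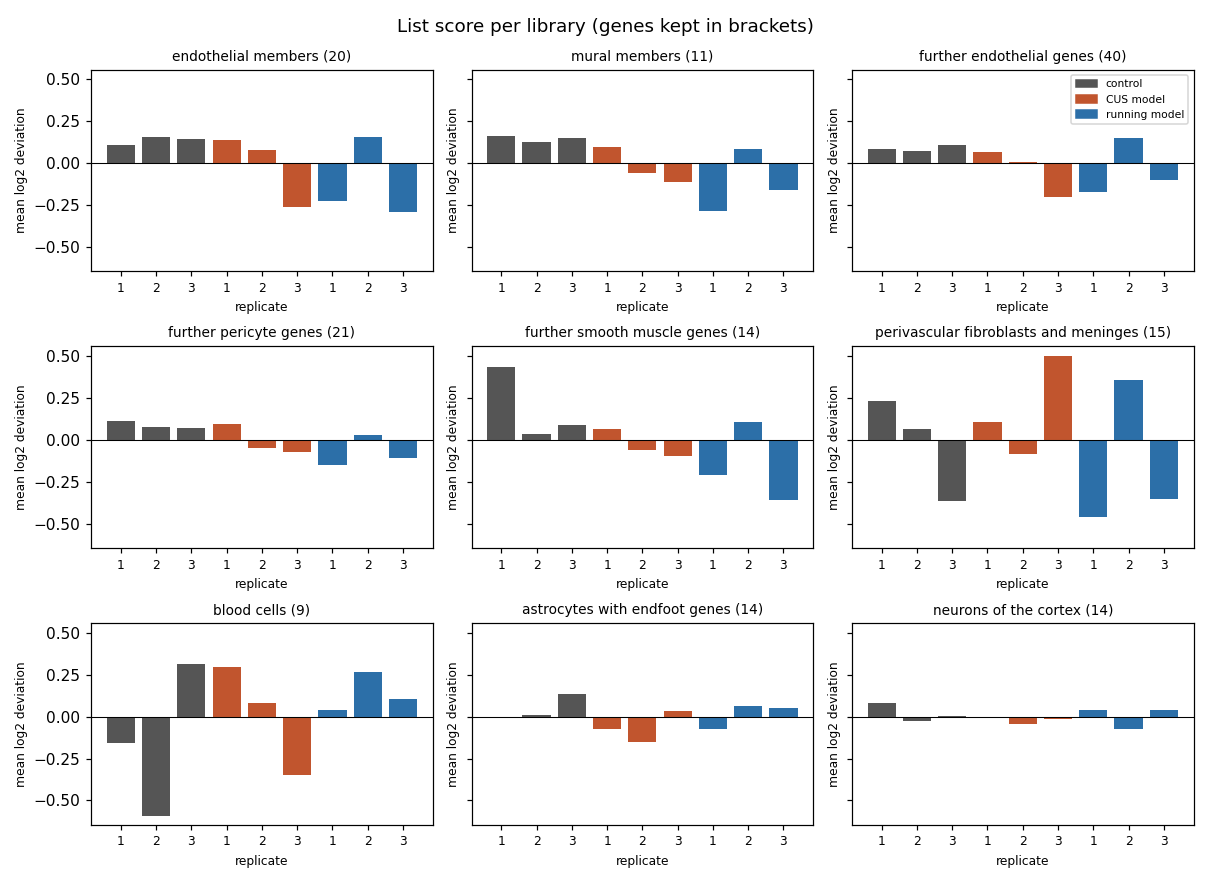
List score per library (y axis, mean log2 deviation from each gene's mean over the 9 libraries) for the endothelial and mural genes and for 7 other lists, with the number of genes kept in brackets and bars coloured by group. CUS replicate 3 and running replicates 1 and 3 lie below 0 in the endothelial and mural panels, and running replicate 2 lies above 0.

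The CUS library that stood apart did so most for members with long transcripts. Against the mean of the other CUS libraries, the 19 members of 2000 bases or more had a median log2 difference of -0.44 in CUS replicate 3, with 17 below 0, and the 12 shorter members had one of -0.01, with 6 below 0. Vwf, Tie1, Nos3 and Eng lay lowest and Higd1b highest. Across the 31 genes the Spearman correlation of transcript length with this difference was -0.63, and across the 13766 kept genes with a length it was -0.40; genes of 1 library are not independent replicates. Long genes as a whole had a median of -0.01 and genes under 2000 bases one of 0.19. The genes described above as lower in running against CUS, Egfl7, Itm2a, Sox18, Ly6a, Cldn5, Myl9, Tagln and Higd1b, have transcripts under 2000 bases. Emcn, also lower there at an unadjusted p under 0.05 (log2 difference -0.31, limma adjusted p = 0.179), has a longer one, of 3521 bases. The part of transcript length in the differences of these genes was not tested. In running replicate 2 the 19 longer members had a median of 0.40 above the other running libraries and the 12 shorter ones 0.29, with a correlation of 0.17. With a trend on transcript length and base composition (GC) taken out of each library, an alternative chosen after seeing the data, the endothelial medians were -0.15 in CUS against control and -0.22 in running against control, and the mural ones -0.17 and -0.15. In running against CUS 13 endothelial and 7 mural genes were then below 0, and 2 members were lower at an unadjusted p under 0.05.

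**Figure D4:**
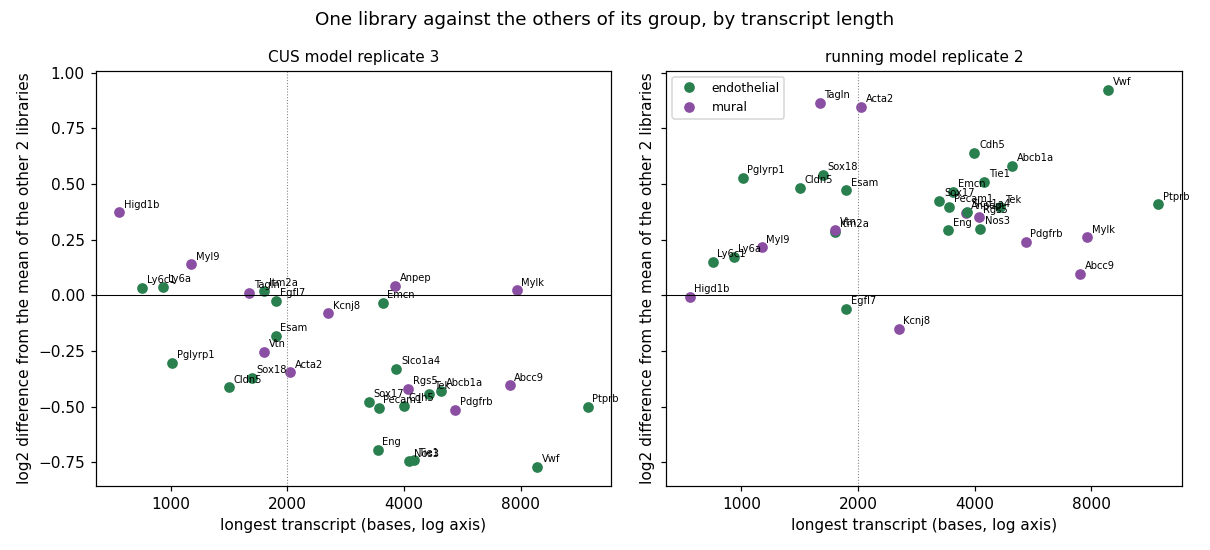
Log2 difference of 1 library from the mean of the other libraries of its group (y axis) against the length of the longest transcript in bases (x axis, log scale) for the 31 genes, in CUS replicate 3 and in running replicate 2. In CUS replicate 3 the members of 2000 bases or more have a median of -0.44 and the shorter ones of -0.01; in running replicate 2 they have medians of 0.40 and 0.29.

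Markers of neighbouring cells were measured in the same libraries. The 15 genes of perivascular fibroblasts and meninges, all kept, summed to between 87.5 and 128 FPKM in controls, 103 and 159 in CUS, and 75.8 and 141 in running, and 0 of them were at 0 in all libraries. Their score was -0.46, 0.36 and -0.35 in running, highest in replicate 2 as for the vascular lists, and 0.50 in CUS replicate 3, the CUS library with the lowest vascular scores. The other CUS libraries had scores of 0.11 and -0.08, and the controls 0.23, 0.07 and -0.37, lowest in replicate 3. In CUS against control 14 of the 15 were above 0 (median log2 difference 0.17), on the other side from most vascular genes. In running against CUS 13 were below 0 (median -0.26), and in running against control 13 (median -0.17). In each of the comparisons 0 of the 15 had an unadjusted p under 0.05 by limma, and for 0 did the groups not overlap. Over all genes 44.1%, 57.8% and 56.2% were below 0 in these comparisons. The blood cell list (12 genes, 9 kept) summed to between 495 and 884 FPKM in controls, 685 and 1043 in CUS, and 975 and 1241 in running. The haemoglobin transcript Hbb-bs had 193.34, 143.78 and 263.71 FPKM in the controls and 322.41, 356.98 and 355.87 in running (log2 difference 0.83, limma adjusted p = 0.148). Of the 9 kept blood cell genes 6 were above 0 and 3 below 0 in running against control. The lower ones were S100a8, S100a9 and Cd79a. At an unadjusted p under 0.05, 5 were higher and 0 lower, against 5.15% higher and 6.47% lower over all genes. The 12 oligodendrocyte and myelin genes, all kept, had 11 below 0 in CUS against control (median -0.47), 5 in running against CUS (median 0.07) and 12 in running against control (median -0.45). By limma 0 of them were called, with 7, 1 and 5 lower and 0, 1 and 0 higher at an unadjusted p under 0.05. Over all genes 5.79%, 15.7% and 6.47% were lower and 8.90%, 7.74% and 5.15% higher at that p. They summed to between 682 and 1265 FPKM in controls, 520 and 760 in CUS, and 600 and 675 in running. Their score was 0.77 in control replicate 3 against -0.015 and 0.15 in the other controls, whereas the vascular scores of the 3 controls lay close together. Without control replicate 3 the endothelial medians were -0.13 in CUS against control and -0.24 in running against control, and the mural ones -0.17 and -0.22. Of the choroid plexus and ependyma list 3 of 12 genes were kept, and its sum reached 219 FPKM in control replicate 3 against at most 43.3 in any other library. The neuronal score lay between -0.08 and 0.08 in all 9 libraries. The part of these markers in the vascular differences was not tested.

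Further genes of the vessel wall, from lists outside the 31, mostly lay on the same side of 0 in the comparisons with controls, except smooth muscle genes in CUS against control. Of 44 further endothelial genes 40 were kept, and 32 of these were below 0 in CUS against control (median -0.13), 18 in running against CUS (median 0.01) and 35 in running against control (median -0.12). By limma 0 of them were called in any comparison, with 6, 2 and 4 lower and 1, 2 and 1 higher at an unadjusted p under 0.05. Over all genes 44.1%, 57.8% and 56.2% were below 0 in these comparisons, 5.79%, 15.7% and 6.47% were lower at that p, and 8.90%, 7.74% and 5.15% were higher. Robo4, an endothelial guidance receptor that steadies vessels, had 3.80, 2.95 and 3.69 FPKM in the controls, 2.58, 2.08 and 2.17 in CUS, and 2.03, 2.38 and 1.77 in running. All 6 values were below the lowest control (log2 difference -0.52 in CUS, limma adjusted p = 0.246, and -0.64 in running, limma adjusted p = 0.104). Gkn3, a gene of arterial endothelium, went the other way, with 1.63, 1.54 and 1.12 FPKM in the controls, 4.55, 2.40 and 2.40 in CUS, and 2.02, 3.31 and 2.07 in running. Every CUS and running library was above every control (log2 difference 0.86 in CUS, limma adjusted p = 0.253, and 0.60 in running, limma adjusted p = 0.349).

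Of 22 further pericyte genes 21 were kept, with 14, 12 and 17 below 0 in CUS against control, running against CUS and running against control, and medians of -0.09, -0.05 and -0.17. In CUS against control the smallest p values were those of Gper1, Cspg4 and Notch3, with log2 differences of -0.36, -0.47 and -0.32 (limma adjusted p = 0.288, 0.296 and 0.307). Cspg4, a proteoglycan of pericytes that oligodendrocyte precursors also make, had 2.39 ± 0.730 FPKM in CUS and 3.40 ± 0.290 in controls. Of 20 further smooth muscle genes 14 were kept, with 7, 10 and 13 below 0 and medians of -0.05, -0.04 and -0.28. Des, the intermediate filament of muscle, had 5.60, 1.18 and 0.98 FPKM in the controls, 0.60, 0.66 and 0.43 in CUS, and 0.41, 1.38 and 0.46 in running. Control replicate 1 was far above all other libraries for this gene and had the highest score of the list, at 0.43. By limma 0 of the pericyte or smooth muscle genes were called, with 4 and 2 lower at an unadjusted p under 0.05 in CUS against control, 2 and 4 in running against CUS, and 1 and 2 in running against control. Of the higher genes 1 had such a p, the smooth muscle gene Sncg in CUS against control (log2 difference 0.22, limma adjusted p = 0.329). The shares over all genes given for the further endothelial list apply here too, and the pericyte share below 0 in running against CUS was near that of all genes. So was the smooth muscle share in CUS against control, with 7 of 14 genes below 0 beside 44.1% of all genes. The 1 lower pericyte gene in running against control was also near the share of all genes.

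A list of angiopoietin and PDGF family genes had medians close to 0. Of these 8 genes, which include the ligands of Tek and Pdgfrb but are not limited to them, 6 were kept. In CUS against control 3 were above and 3 below 0, with a median of 0.04. The medians were -0.02 in running against CUS and -0.04 in running against control. Pdgfb and Angpt1 are named for their roles. Pdgfb, the endothelial signal to pericytes, had 14.32, 14.18 and 13.09 FPKM in the controls, 13.79, 15.52 and 15.55 in CUS, and 14.03, 17.27 and 14.71 in running. Its values overlapped between all groups. Angpt1, the activating ligand of Tek, lay between 1.26 and 1.86 FPKM in all libraries. Angptl4, a secreted inhibitor of lipoprotein lipase, had 2.55, 2.15 and 2.07 FPKM in the controls, 1.21, 1.52 and 1.60 in CUS, and 1.33, 1.80 and 1.93 in running. Its controls lay above the other 6 libraries (log2 difference -0.51 in CUS, limma adjusted p = 0.253, and -0.34 in running, limma adjusted p = 0.368).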

How the data were processed

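RNA from the medial prefrontal cortex was sequenced in 9 libraries of 3 groups. The authors deposited FPKM values, rounded to 2 decimals. Build mm10 and the tools Bowtie2 2.2.5, RSEM 1.2.12 and DESeq2 1.4.5 are named per the submitters' processing notes, and no source used here gives their settings or the annotation. Per the labels' protocols, oligo(dT) beads captured the polyadenylated RNA and nothing marks the strand, so reads of antisense partners cannot be told apart. The read depth behind the values is unknown, so no counting interval is given.

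Values were analysed as log2(FPKM + 0.5). A gene was kept if 3 or more libraries reached 0.5 FPKM (14013 of the 35125 rows with an NCBI gene ID, in a table of 65389 rows). limma 3.58.1 in R 4.3.3 fitted 1 model of the 9 libraries with moderated variances and an intensity trend. The Benjamini-Hochberg adjustment covered all kept genes, and calls needed an adjusted p below 0.05. The code was tested on simulated data. The members and lists were chosen with earlier results of these data known. Per comparison, the rule for naming took the 4 endothelial and 3 mural genes with the smallest p, beside 10 defining genes, and up to 3 genes of each further list. Transcript lengths came from GENCODE M21, and positions and promoters from RefSeq on GRCm38.p6. Alternatives covered pseudocounts, filters, scalings, weights, a fit of 2 groups and leaving out each library.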

Additional observations from a re-analysis of the deposited data

How the results depend on the processing

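No paired analysis was possible because the labels give no replicate numbers shared between groups. Counts of called genes were 1, 1 and 3 in CUS against control, running against CUS and running against control. Without the filter on low values they were 0 in running against CUS and 1 in running against control, and with a filter at 2 FPKM they were 0 in CUS against control and 4 in running against CUS. In running against CUS, TPM gave 3, quantile normalization 2 and median-ratio scaling 2; a fit of 2 groups gave 15, and 24 in running against control. Library weights gave 8, 2178 and 147, and removing the length and GC trend 0, 0 and 9. Leaving out 1 library gave from 1 to 6, from 0 to 1518 and from 1 to 10 called genes. The mural median in running against CUS was -0.22 with the filter at 2 FPKM and -0.15 with library weights. The filter at 2 FPKM removed Abcc9, Kcnj8 and Anpep, with differences of 0.41, -0.0093 and 0.09, so its median covers fewer genes. Leaving out 1 library gave endothelial medians from -0.27 to -0.00023, from -0.20 to 0.04 and from -0.34 to -0.16, and mural medians from -0.24 to -0.10, from -0.13 to 0.04 and from -0.27 to -0.17.

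Some differences near 0 changed sign, and the cause was not tested. Cldn5 in CUS against control was -0.0635 with TPM, -0.0265 with quantile normalization, -0.0223 with median-ratio scaling and -0.0463 with the trend removed, and from -0.0857 to 0.14 without 1 library. Vtn in that comparison was 0.0965 with library weights. In running against CUS, Pecam1 was 0.0201 with TPM and from -0.24 to 0.0412 without 1 library, and Acta2 from -0.50 to 0.0497. With library weights Cdh5, Tek, Tie1, Pdgfrb and Rgs5 were -0.15, -0.19, -0.20, -0.15 and -0.11. Without 1 library they ranged from -0.18 to 0.17, -0.14 to 0.10, -0.16 to 0.22, -0.13 to 0.15 and -0.093 to 0.14, in each case below 0 without CUS replicate 3 or running replicate 2. With the trend removed Tek was -0.0216 and Pdgfrb -0.0494. The read depth is unknown, so what it limits could not be computed.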

Other observations

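Other cells of the vessel's surroundings were measured in the same libraries. Of 12 genes of perivascular macrophages and microglia 11 were kept, and they summed to between 117 and 125 FPKM in controls, 125 and 142 in CUS, and 116 and 126 in running. Their median log2 difference was 0.18 in CUS against control and 0.14 in running against control, on the other side of 0 from the vessel genes. In running against CUS it was -0.06, with 8 below 0. Their score was -0.10, -0.12 and -0.06 in the controls, -0.006, -0.018 and 0.19 in CUS, and -0.07, 0.21 and -0.04 in running. CUS replicate 3 and running replicate 2 thus stood above the rest of their groups. The 14 astrocyte genes, which include genes of the endfeet that cover brain vessels, had medians of -0.11 in CUS against control, 0.08 in running against CUS and 0.01 in running against control. By limma 0 genes of either list were called. At an unadjusted p under 0.05, in the order CUS against control, running against CUS and running against control, 2, 0 and 1 macrophage and microglia genes were higher and 0, 2 and 0 lower. For the astrocyte genes these counts were 0, 2 and 0 higher and 3, 0 and 1 lower. Over all genes 8.90%, 7.74% and 5.15% were higher and 5.79%, 15.7% and 6.47% lower at that p.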
